A study of Mus musculus with 24 samples.

Results

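A set of 10 genes of the Notch pathway was examined in sorted nuclei of the mouse cortex. They were the receptors Notch1, Notch2 and Notch3, the ligands Dll1, Dll3 and Jag1, the DNA-binding effector Rbpj, and the target genes Hes1, Hes5 and Hey1. The genes were taken by name from the 25135 genes listed at each age, and all 10 were found in both expression tables. RNA-seq was made from SUN1-GFP-positive cortical nuclei at postnatal day (P) 1 and at P30, with 6 libraries for each genotype and age and 24 in all. WT mice were Kdm6b wt/wt, and their Kdm6b-cKO littermates were Emx1-Cre; Kdm6b f/f, with both cohorts on a C57BL/6 background and carrying the SUN1-GFP reporter. The paper uses this reporter in both cohorts to mark the progeny of Emx1-positive cells, though its WT genotype is written without Cre. Kdm6b encodes a demethylase of lysine 27 on histone H3, and Emx1-Cre recombines in the neuroepithelium of the embryonic cortex, so that interneurons arriving from ventral regions largely lie outside its lineage. The sex of the mice, and whether a library came from 1 animal or from several, are not given in the sources used here, so p-values measure the spread between these libraries.

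Notch receptors are cut at the membrane after a Delta or Jagged ligand on a neighbouring cell binds them. The freed intracellular part enters the nucleus, joins RBPJ and coactivators of the Mastermind family, and switches on genes such as Hes1, Hes5 and Hey1. Their products are repressors of the bHLH family that hold back proneural genes, and in the developing cortex the pathway is known for keeping radial glia undifferentiated and for its parts in gliogenesis and in the blood vessel wall.

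In the mm9 genome the receptor genes lie at chr2:26313423-26372183 (Notch1, minus strand), chr3:97817461-97954290 (Notch2, plus strand) and chr17:32257765-32303825 (Notch3, minus strand). Hes5 is a short gene at chr4:154335032-154336480 on the plus strand. Of the 10 genes, 8 had a promoter window in RefSeq (GRCm38.p6), covering 250 bases before to 50 bases after a start site, and Hes1 and Hey1 had none. The windows of Notch2 (chr3:98013288-98013587, plus strand) and Hes5 (chr4:154960673-154960972, plus strand) are shown because these genes had the smallest p-values between genotypes at P30. Capitals mark the core of the RBPJ motif, TGGGAA or its reverse complement TTCCCA, searched on both strands.
Notch2: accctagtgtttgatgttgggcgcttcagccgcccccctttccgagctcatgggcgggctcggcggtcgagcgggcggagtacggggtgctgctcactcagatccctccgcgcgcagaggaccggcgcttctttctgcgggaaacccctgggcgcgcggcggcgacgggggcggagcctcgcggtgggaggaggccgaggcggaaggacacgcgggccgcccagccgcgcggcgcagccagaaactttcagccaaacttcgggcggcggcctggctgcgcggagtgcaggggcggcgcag
Hes5: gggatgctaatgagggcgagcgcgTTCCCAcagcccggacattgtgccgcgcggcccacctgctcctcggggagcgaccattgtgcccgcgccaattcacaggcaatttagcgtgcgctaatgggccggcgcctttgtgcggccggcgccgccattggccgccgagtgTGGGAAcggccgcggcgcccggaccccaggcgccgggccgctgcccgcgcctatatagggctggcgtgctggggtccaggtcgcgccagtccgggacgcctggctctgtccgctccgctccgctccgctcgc
The Hes5 window held the core at -226 and at -82 from the start site, facing opposite ways, and the Notch2 window held none. Of the 32851 windows in the same table, 25.6% held the core at least once and 3.79% held it 2 or more times. Only Hes5 and Rbpj had it among the 8 genes with a window. A match of these letters is a description and not a binding site.

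Values were deposited as FPKM, fragments scaled to transcript length and to the size of the library, in a separate table for each age. Depth recovered from the steps between low values was 819000 to 3900000 effective reads in P1 WT libraries, 192000 to 2850000 in P1 Kdm6b-cKO libraries, 5120000 to 8320000 in P30 WT libraries and 1940000 to 8060000 in P30 Kdm6b-cKO libraries. Kdm6b itself did not separate the genotypes at the level of the whole gene. Its FPKM was 24.9 to 51.0 in WT and 15.0 to 38.4 in Kdm6b-cKO at P1 (exact permutation test, two-sided, p = 0.190), and 16.9 to 26.4 against 17.5 to 28.1 at P30 (exact permutation p = 0.446). A whole-gene value does not show loss of the floxed part alone, so genotypes follow the labels, and Kdm6b-cKO below means the libraries labelled so. By qRT-PCR on sorted SUN1-GFP-positive nuclei, the paper reports a strong reduction of Kdm6b mRNA in Kdm6b-cKO. In the P1 set, 4 WT libraries and 1 Kdm6b-cKO library had more than 100 olfactory receptor genes above 0. In the P30 set, 1 WT and 3 Kdm6b-cKO libraries had the 45S ribosomal transcript Rn45s below 1000 FPKM and the rest lay above it. The genotype differences of the 10 genes, and the WT age changes where P1 libraries are concerned, are also given without these libraries.

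Hes5 had the highest median FPKM of the 10 genes in every group. In WT at P1 its FPKM was 41.9 to 74.6 with a median of 52.1, above every value of Hey1, which followed at a median of 15.1. Next to these 2 targets, 5 genes had P1 WT medians between 5.19 and 7.20 FPKM (Dll1, Notch2, Jag1, Hes1 and Rbpj), and their ranges overlapped, so their order did not hold from library to library. Notch1 followed at 4.33 FPKM, below Rbpj in 6 of 6 libraries, and then Notch3 at 2.63 and Dll3 at 2.53, which changed places in 3 of 6 libraries. At P30 the WT order again began with Hes5 (median 29.7 FPKM, 19.9 to 47.1) and Hey1 (6.27 FPKM), and it ended with Jag1 (0.714 FPKM) and Dll3 (0.226 FPKM). The neighbours from Hey1 down to Dll3 overlapped in range in P30 WT. FPKM is scaled to transcript length, so these levels can be set beside each other within a library, but levels of the 2 tables were not compared.

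**Figure D1:**
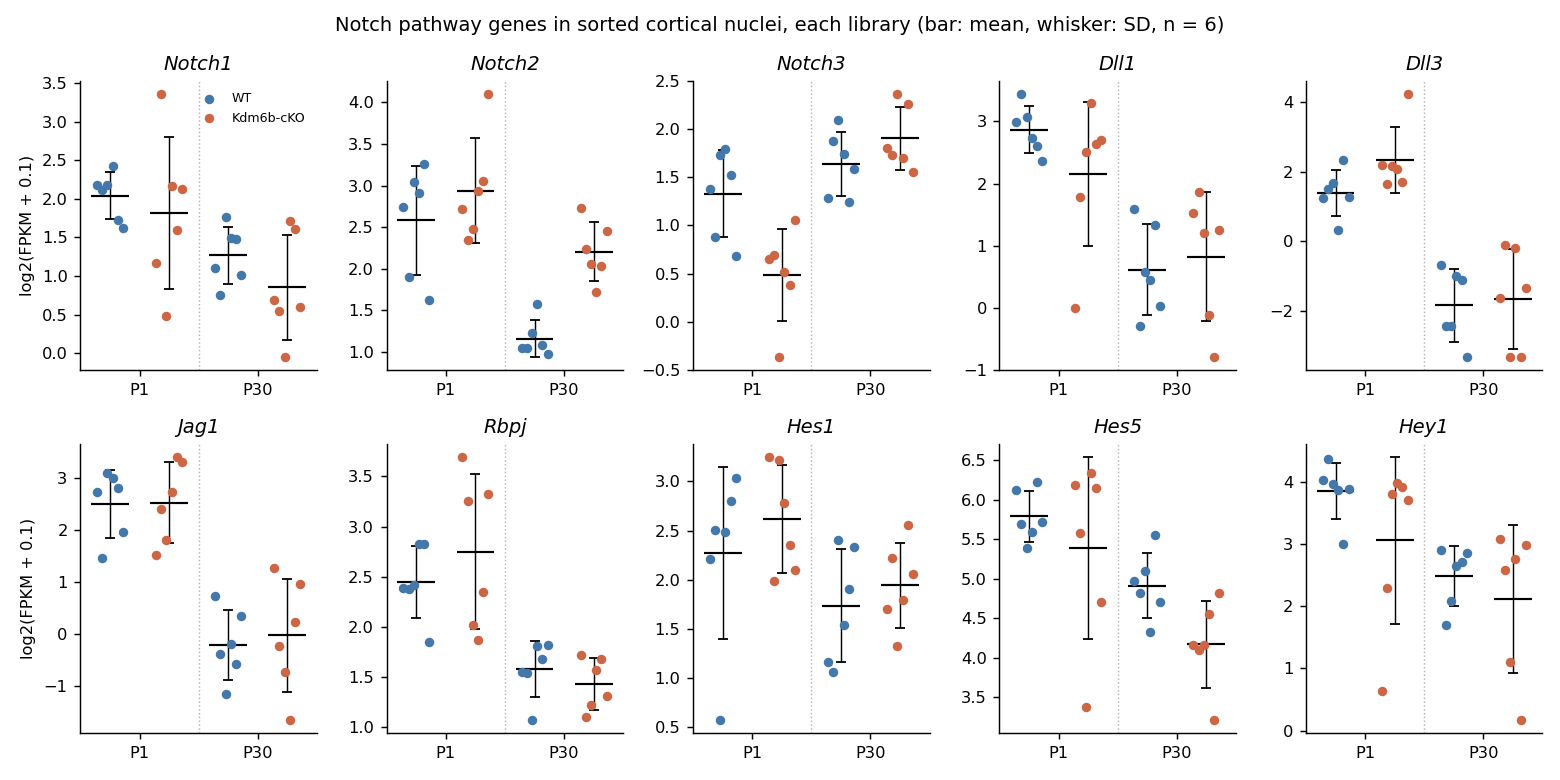
Level of each of the 10 genes in every library, as log2(FPKM + 0.1), at P1 and P30 in WT (blue) and Kdm6b-cKO (orange), with the mean and SD of 6 libraries. Notch2 at P30 has all Kdm6b-cKO points above all WT points, while the other genes overlap between genotypes at both ages.

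The first comparison asked whether the pathway genes differed between genotypes at P1. All 10 genes passed the filter on low values (mean of at least 1 FPKM), and none was called (adjusted p under 0.05 and over 2-fold) in limma. Nor did any of the 10 have an unadjusted limma p under 0.05. Over all 16250 genes tested, 0% were called, 14.5% had an unadjusted p under 0.05, and the median log2 fold change was -0.25. Quantile normalization brought that median to -0.02, and the P1 differences below are given before that shift.

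Among the receptors, Notch3, which is best known from mural cells of vessels, had the P1 difference with the smallest exact p. Its FPKM was 1.5 to 3.36 in WT (median 2.63) against 0.675 to 1.97 in Kdm6b-cKO (median 1.40). The groups overlapped, and the values rested on 13 to 59 reads a library in WT and 3 to 30 in Kdm6b-cKO. The log2 difference was -0.84 ± 0.47 (SE, n = 6 a group), with an exact permutation p of 0.0152 and a limma adjusted p of 0.427. It was -0.55 with an exact permutation p of 0.364 under quantile normalization, and -1.12 with an exact permutation p of 0.0357 in the 5 WT and 3 Kdm6b-cKO libraries over 1000000 effective reads. Within the 2 WT and 5 Kdm6b-cKO libraries without olfactory receptor signal the difference was -0.75 (exact permutation p = 0.0952, where 0.0476 is the smallest possible). The mural marker list had 7 of 7 tested genes below 0 at P1, as were 10272 of all 16250 genes, 0 of the 7 with an unadjusted p under 0.05, and its summed level was 52.2 to 123 FPKM in WT and 34.1 to 116 FPKM in Kdm6b-cKO. Its part in the Notch3 value was not tested.

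Notch1 and Notch2, the receptors of radial glia and of other cortical cells, overlapped between genotypes at P1. Notch1 lay at 2.98 to 5.26 FPKM in WT against 1.29 to 10.1 FPKM in Kdm6b-cKO, with a log2 difference of -0.23 ± 0.47 (SE). Notch2 lay at 2.99 to 9.50 FPKM in WT against 4.96 to 17.0 FPKM in Kdm6b-cKO, with a log2 difference of 0.36 ± 0.39 (SE). The 10 radial glia and progenitor markers summed to 948 to 1800 FPKM in WT and 1612 to 3972 FPKM in Kdm6b-cKO at P1. Most of this sum was Fabp7 alone, at 766 to 1638 FPKM in WT and 1318 to 3652 FPKM in Kdm6b-cKO. Of the 10 markers, 9 had a log2 difference above 0 and 4 were higher with an unadjusted p under 0.05, and none had a call. The 6 oligodendrocyte precursor markers were all below 0 (median log2 difference -1.01), 3 of them with an unadjusted p under 0.05, at a summed 63.5 to 88.1 FPKM in WT and 49.99 to 74.2 FPKM in Kdm6b-cKO. Of the 12 astrocyte markers 9 were below 0 and 5 had an unadjusted p under 0.05, lower, at a summed 253 to 374 FPKM in WT and 141 to 483 FPKM in Kdm6b-cKO. GABAergic markers, which the Emx1 lineage should largely lack, summed to 456 to 884 FPKM in WT and 593 to 1530 FPKM in Kdm6b-cKO. Of 9 tested, 6 were below 0 and 1 was lower with an unadjusted p under 0.05. Glutamatergic markers summed to 438 to 712 FPKM in WT and 563 to 980 FPKM in Kdm6b-cKO. Over all 16250 genes, 7.77% were lower and 6.7% higher with an unadjusted p under 0.05. The part of these cell types in the values of the 10 genes was not tested. The spread of Notch1 in Kdm6b-cKO was wider than in WT, with an SD of 3.15 against 0.853 FPKM.

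Of the ligands, Dll3, a divergent Delta that is known to act inside the cell rather than at its surface, lay at 1.16 to 4.97 FPKM in WT against 3.06 to 18.6 FPKM in Kdm6b-cKO at P1. Its log2 difference was 0.94 ± 0.50 (SE), with an exact permutation p of 0.0455 and a limma adjusted p of 0.403. Under quantile normalization it was 1.71 with an exact permutation p of 0.00649, and in the libraries over 1000000 effective reads it was 0.77 with an exact permutation p of 0.0357. It was 0.59 in the libraries without olfactory receptor signal (exact permutation p = 0.0476, the smallest possible there). These values stood on 3 to 21 reads in WT and 3 to 24 reads in Kdm6b-cKO, and the highest one, 18.6 FPKM, was 7 reads in the library of least depth. Without that library the difference was 0.56 and the exact permutation p was 0.102. Leaving out any of the WT libraries 0, 1, 2, 3 or 5, or Kdm6b-cKO libraries 0, 2 or 3, also moved the exact permutation p above 0.05, to between 0.0584 and 0.113. Dll1, the Delta ligand of neurogenic progenitors, lay at 5.07 to 10.7 FPKM in WT against 0.901 to 9.74 FPKM in Kdm6b-cKO, with a log2 difference of -0.71 ± 0.49 (SE). Its lowest Kdm6b-cKO value was a single read. Jag1 differed by 0.02 ± 0.43 (SE) on the log2 scale, the smallest of the 10 differences at P1.

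Rbpj, the transcription factor to which the cut receptors bind, lay at 3.49 to 6.99 FPKM in WT against 3.55 to 12.8 FPKM in Kdm6b-cKO at P1, a log2 difference of 0.30 ± 0.39 (SE). Its sign depended on the libraries: it was -0.29 in those over 1000000 effective reads. Hes1 (0.34 ± 0.44, SE), Hes5 (-0.40 ± 0.43, SE) and Hey1 (-0.79 ± 0.52, SE) had log2 differences below 2 SE. Hes5 ran from 10.3 to 80.9 FPKM in Kdm6b-cKO around a median of 59.2, and Hey1 from 1.46 to 15.8 FPKM around a median of 13.4. The lowest Hey1 value again was 1 read. In the libraries without olfactory receptor signal the log2 difference was -1.27 for Hey1 and -1.17 for Dll1, each with an exact permutation p of 0.286, and for the 6 genes Notch1, Notch2, Jag1, Rbpj, Hes1 and Hes5 it lay between -0.40 and 0.38.

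**Figure D2:**
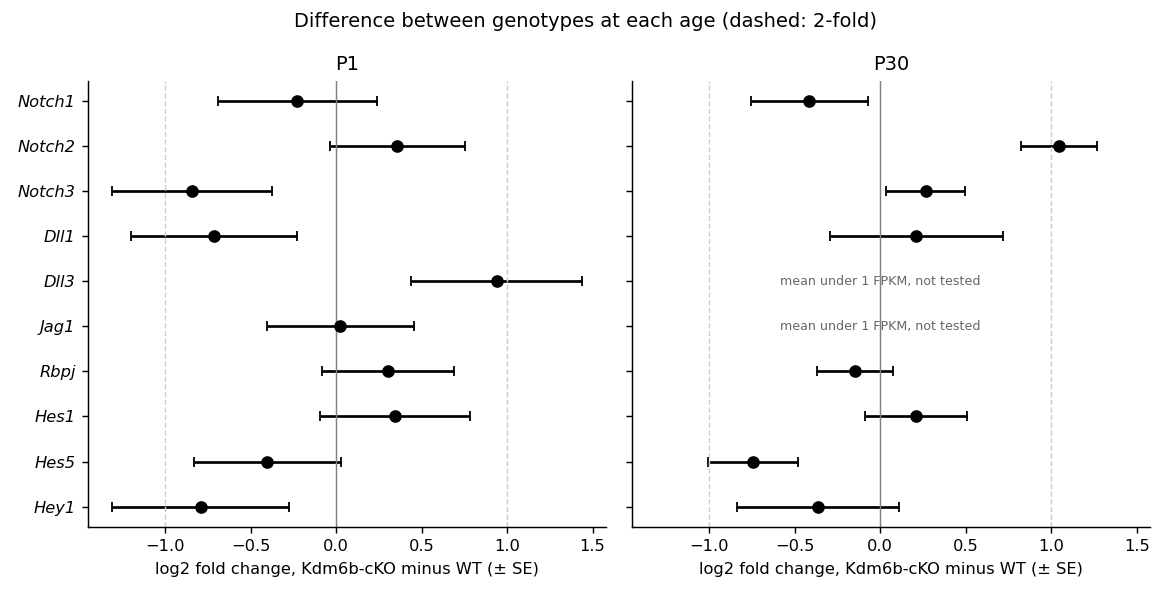
Log2 fold change of each gene, Kdm6b-cKO minus WT, at P1 and P30, with the standard error from limma as the bar and 2-fold marked by dashed lines. Notch2 at P30 lies at 1.05, and Dll3 and Jag1 were under the filter at P30.

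At P30 the same question was asked of 8 genes, since Dll3 and Jag1 were under a mean of 1 FPKM. None of the 8 was called, against a background of 0.278% of the 13289 genes tested, 0.226% lower and 0.0527% higher. Of the 8, Notch2 and Hes5 had an unadjusted limma p under 0.05, against 12.7% of all genes. Notch2 came nearest to the call. Its FPKM was 1.86 to 2.89 in WT (median 1.99) and 3.19 to 6.54 in Kdm6b-cKO (median 4.34), so the lowest Kdm6b-cKO library lay above the highest WT library, and the medians stood in a ratio of 2.17. These values rested on 109 to 174 reads a library in WT and 80 to 464 in Kdm6b-cKO. The log2 difference was 1.05 ± 0.22 (SE, n = 6 a group), the exact permutation p was 0.00216, the smallest that the splits of 12 libraries can give, and the limma adjusted p was 0.0718. Notch2 was the 1 gene of the 8 with all 6 libraries of each genotype apart, which held for 1.94% of the genes tested and, with Kdm6b-cKO higher, for 0.888%, and 0.519% of them had an unadjusted p as small as that of Notch2.

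The Notch2 difference passed the call in 4 of the other fits: quantile normalization (1.16, adjusted p = 0.0340), library weights estimated by limma (1.30, adjusted p = 0.00112), no trend in the variance (1.05, adjusted p = 0.0356) and weights by depth (1.18, limma adjusted p = 0.0172). With Rn45s as a batch term it was 0.95 with an adjusted p of 0.0229, short of 2-fold. Notch2 missed the call with the other pseudocounts, with no filter, with median-of-ratios scaling and with a replicate block. Leaving out each library in turn gave log2 differences of 0.94 to 1.14, and 0 of these 12 fits passed the call. The Kdm6b-cKO libraries with low Rn45s were also those with the 3 highest Notch2 values, 4.6, 5.36 and 6.54 FPKM. Among the 5 WT and 3 Kdm6b-cKO libraries with high Rn45s the difference was 0.76, with an exact permutation p of 0.0179, the smallest possible there. Among the 1 WT and 3 Kdm6b-cKO libraries with low Rn45s it was 1.42, where no p below 0.250 can be reached.

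Cell type markers differed at P30 too. Over all 13289 genes tested, 38 were lower and 11 higher at an adjusted p under 0.05. At an unadjusted p under 0.05, 7.37% of all genes were lower and 5.34% higher. The 8 mature oligodendrocyte markers summed to 260 to 510 FPKM in WT and 136 to 199 FPKM in Kdm6b-cKO, without overlap, and 2 of the 8 passed the adjusted p, lower. The 6 oligodendrocyte precursor markers summed to 35.0 to 48.6 FPKM in WT and 26.8 to 34.2 FPKM in Kdm6b-cKO, also without overlap, and 1 passed. GABAergic markers, which the Emx1 lineage should largely lack, summed to 32.7 to 392 FPKM in WT and 145 to 320 FPKM in Kdm6b-cKO, with 5 of 7 tested genes higher at an unadjusted p under 0.05. Microglial markers summed to 12.2 to 33.9 FPKM in WT and 19.1 to 44.9 FPKM in Kdm6b-cKO, with a ratio of medians of 2.25, and 2 of 5 tested genes were higher at an unadjusted p under 0.05 (median log2 difference 1.52). Astrocyte markers summed to 146 to 217 FPKM in WT and 129.5 to 207 FPKM in Kdm6b-cKO, with 2 of 12 lower at an unadjusted p under 0.05. Endothelial markers summed to 4.11 to 14.5 FPKM in WT and 4.79 to 13.4 FPKM in Kdm6b-cKO. In WT 1 of the 8 endothelial markers (Pecam1) and 1 of the 8 microglial markers (Cx3cr1) had a median of 0, and in Kdm6b-cKO none did. The 10 progenitor markers summed to 24.6 to 35.95 FPKM in WT and 23.6 to 44.1 FPKM in Kdm6b-cKO, and 1 of them, Eomes, was at 0 in every P30 library. Of the 5 progenitor markers tested, 4 had a log2 difference above 0, and 0 had an unadjusted p under 0.05. The part of these cell types in the differences of Notch2 and of Hes5 was not tested, and in bulk nuclei fewer cells of a type cannot be told apart from less RNA per cell.

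Hes5, the most abundant target, had the other P30 difference with an exact p under 0.05. Its FPKM was 19.9 to 47.1 in WT (median 29.7) and 9.18 to 28.1 in Kdm6b-cKO (median 17.8). The groups overlapped, with 2 WT libraries below the highest Kdm6b-cKO library. The log2 difference was -0.74 ± 0.26 (SE), with an exact permutation p of 0.0152 and a limma adjusted p of 0.257. It was -0.92 among the high-Rn45s libraries (exact permutation p = 0.0536) and -0.61 among the low-Rn45s ones. Across all genes 7.37% were lower with an unadjusted p under 0.05. Of the other targets, Hes1 lay at 2.00 to 5.19 FPKM in WT against 2.41 to 5.79 FPKM in Kdm6b-cKO, a log2 difference of 0.21 ± 0.30 (SE), and Hey1 differed by -0.36 ± 0.47 (SE). The lowest Hey1 value in Kdm6b-cKO, 1.03 FPKM, was 4 reads, and without that library the difference was 0.02. Among the high-Rn45s libraries Hey1 differed by -1.05, further from 0 than with all libraries (exact permutation p = 0.179), and Hes1 by 0.04.

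The remaining P30 differences were small against their errors. Notch1 lay at 1.59 to 3.29 FPKM in WT against 0.866 to 3.18 FPKM in Kdm6b-cKO (log2 difference -0.41 ± 0.34, SE), and Notch3 at 2.27 to 4.17 FPKM against 2.85 to 5.05 FPKM (0.27 ± 0.23, SE). Rbpj differed by -0.15 ± 0.22 (SE). Dll1 differed by 0.21 ± 0.50 (SE), and by -0.32 among the high-Rn45s libraries. In those libraries Notch1 differed by -0.21, Notch3 by 0.40, Rbpj by -0.10, Jag1 by -0.32 and Dll3 by -0.22. Jag1, at 0.344 to 1.56 FPKM in WT and 0.217 to 2.31 FPKM in Kdm6b-cKO, and Dll3, at 0 to 0.519 FPKM and 0 to 0.822 FPKM, were at the edge of detection. Dll3 gave 20 reads over the 6 WT libraries and 23 over the 6 Kdm6b-cKO libraries, and a difference was not detectable at this depth.

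The balance among the receptors was read as the share of each in the summed FPKM of Notch1, Notch2 and Notch3, a quantity that does not depend on how a library was scaled. The shares were computed after the receptor values had been seen and are given without a test. How often such shares in other gene sets come apart was not computed. At P1 Notch3 made up 17.9% to 21.0% of the receptor total in WT and 8.49% to 14.6% in Kdm6b-cKO, without overlap. Its Kdm6b-cKO values rested on 3 to 30 reads a library. Notch2 held 37.8% to 61.4% in WT and 29.9% to 73.6% in Kdm6b-cKO at that age. At P30 Notch2 made up 23.0% to 32.7% in WT and 33.4% to 57.1% in Kdm6b-cKO, again without overlap. Notch1 had a median share of 31.5% in WT and 14.8% in Kdm6b-cKO at P30, and its ranges overlapped. The receptor with the largest median share was Notch2 in P1 WT (47.5%), P1 Kdm6b-cKO (65.3%) and P30 Kdm6b-cKO (45.5%), and Notch3 in P30 WT (39.9%).

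**Figure D3:**
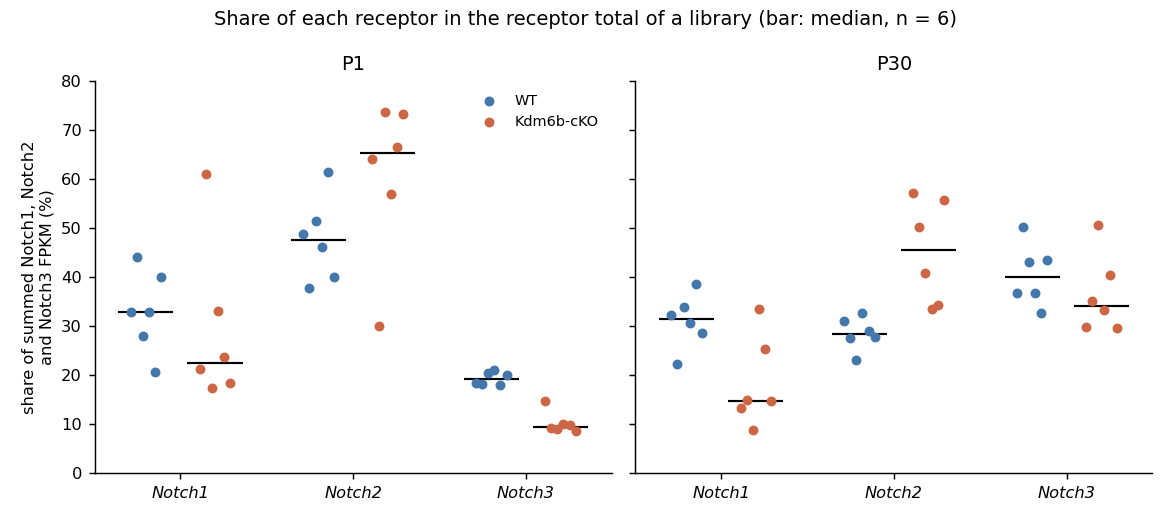
Share of Notch1, Notch2 and Notch3 in their summed FPKM, in percent, for each library at P1 and P30, with the median of 6 libraries as a bar. Notch3 at P1 and Notch2 at P30 are the receptors whose WT and Kdm6b-cKO points do not overlap.

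Whether a genotype difference itself changed with age was tested over all 24 libraries. Of the 8 genes tested none passed, against 0.00791% of the 12644 genes tested, which is 1 gene. Notch3 had the smallest p of the 8: its log2 difference was higher at P30 than at P1 by 1.11 ± 0.43 (SE), with an unadjusted p of 0.0175 and a limma adjusted p of 0.278. Unadjusted p-values under 0.05 were found in 13.2% of all genes. For Notch2 the change was 0.69 ± 0.44 (SE, limma adjusted p = 0.520), so its differences of 0.36 at P1 and 1.05 at P30 were not shown to differ from each other.

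Age was compared in WT by the rank of each gene within its library, as a percentile of the 25135 genes, because the tables were normalized separately. Of the 10 genes, 6 fell in rank from P1 to P30 and 1 rose at an adjusted p under 0.05, against 63.7% of the 16449 genes tested, made up of 32.3% that fell and 31.4% that rose. All 3 ligands were lower at P30. Jag1 lay at percentile 55.4 to 69.3 at P1 and 41.8 to 51.5 at P30, without overlap, and fell by 17.1 ± 2.76 (SE) percentile points with a limma adjusted p of 7.2e-05. Dll1 lay at 63.0 to 73.4 and then 46.8 to 57.8, also without overlap, and fell by 15.2 ± 2.56 (SE) points with a limma adjusted p of 0.00011. Dll3 fell by 14.4 ± 5.07 (SE) points with a limma adjusted p of 0.0223, and its ranges overlapped. All 6 libraries of each age were apart with P30 lower in 20.8% of the genes tested.

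The receptors did not move together with age. Notch2 fell by 9.38 ± 2.63 (SE) points, with a limma adjusted p of 0.00596. Notch3 rose by 8.11 ± 2.41 (SE) points, from percentile 45.4 to 54.7 at P1 to 55.5 to 63.1 at P30, with a limma adjusted p of 0.0085 and no overlap, which 22.1% of all genes showed in that direction. Against the 2 P1 WT libraries without olfactory receptor signal alone, Notch3 was 5.95 points higher at P30 and missed the threshold (limma adjusted p = 0.0828). Notch1 differed by -1.74 ± 2.42 (SE) points. Rbpj differed by -4.38 ± 1.98 (SE) points, with a limma adjusted p of 0.065 that passed the threshold in 3 of the other fits.

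Of the targets, Hey1 fell by 11.2 ± 2.57 (SE) points (limma adjusted p = 0.00149). Hes5 fell by 3.58 ± 1.31 (SE) points (limma adjusted p = 0.0269), and it remained high, at percentile 85.1 to 94.9 at P30. Its call was lost in 6 of the other WT fits, 4 of which left out 1 library (WT P1 library 0 or 4, WT P30 library 3 or 5), with values of -2.56 to -3.38 points there. Hes1 differed by -0.74 ± 3.99 (SE) points and changed sign when single libraries were left out. With only the 2 P1 WT libraries without olfactory receptor signal, Dll1 (-19.4 points), Jag1 (-14.2), Dll3 (-17.9), Hey1 (-14.5) and Notch2 (-7.64) stayed under an adjusted p of 0.05 in limma, Hes5 did not (-3.46 points, limma adjusted p = 0.188), and Notch1 (-4.98), Rbpj (-4.81) and Hes1 (-2.96) were not called either.

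**Figure D4:**
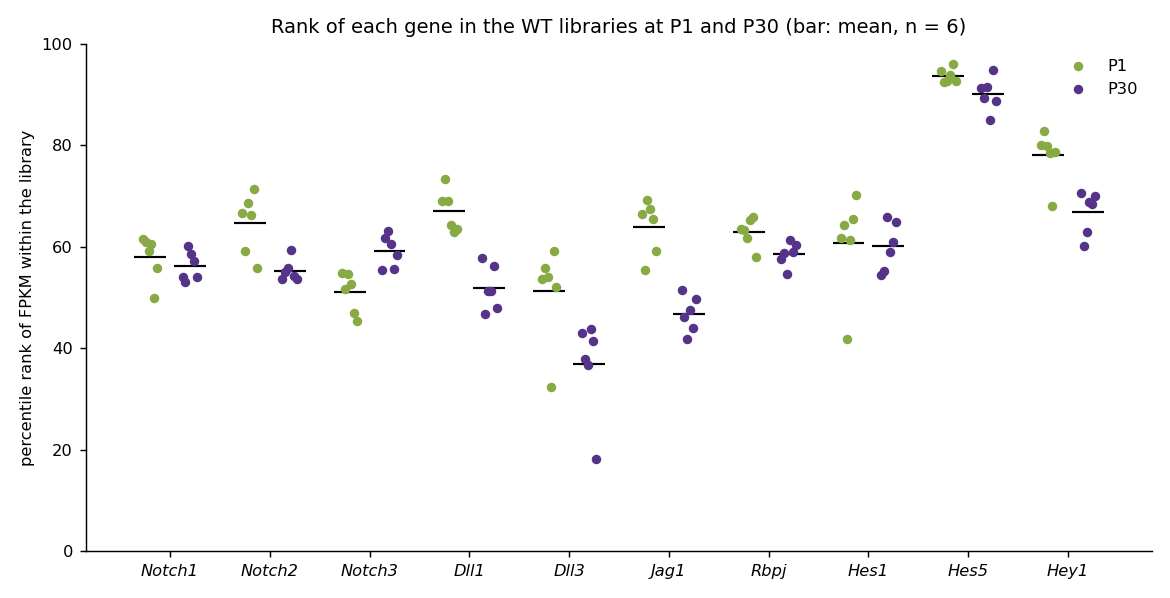
Percentile rank of each gene's FPKM within its library, for the 6 WT libraries at P1 and the 6 at P30, with the mean as a bar. Jag1 and Dll1 lie lower at P30 and Notch3 higher without overlap, and Hes5 lies between percentile 85.1 and 96.0 over both ages.

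In the Kdm6b-cKO libraries the same ranks are given as a description. Jag1 fell by 17.2 points, Dll3 by 29.2 points, and Notch3 was higher at P30 by 14.7 points, each with a limma adjusted p under the threshold. Dll1 (-8.08 points), Hey1 (-7.11 points), Notch2 (-5.48 points) and Hes5 (-5.26 points) had the sign seen in WT and missed the threshold. Rbpj (-8.9497 points), Notch1 (-3.21 points) and Hes1 (-0.885 points), which were not called in WT, also had the sign seen there. The ranges of Rbpj at the ages overlapped in Kdm6b-cKO. No difference between genotypes was shown by this, since of these genes none passed the test of genotype by age, in which Dll3 and Jag1 were not included.

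Cell type markers also moved with age in WT. Of 10 progenitor markers 8 were lower in rank at P30 at an adjusted p under 0.05, as were 8 of 8 endothelial markers, 4 of 7 tested mural markers and 5 of 8 microglial markers, whereas 7 of 8 mature oligodendrocyte markers were higher. Astrocyte markers were split, with 6 of 12 lower and 4 higher. Of 10 GABAergic markers 7 were lower and 2 higher, and of 9 glutamatergic markers 6 were lower and 3 higher. Over all genes tested, 32.3% were lower and 31.4% higher. The part of any of these cell types in the ranks of the 10 genes was not tested.

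The rest of the pathway was followed in 63 other genes plus 6 proneural genes. At P1 no gene of the lists was called, and of the 61 tested pathway genes 5 were lower and 3 were higher with an unadjusted p under 0.05, where all genes had 7.77% lower and 6.7% higher, with a median log2 difference of -0.18 beside -0.25 for all genes. Receptor cleavage genes lay mostly below 0, 9 of 10 at P1 (median -0.44), where 10272 of all 16250 genes lay below 0, and 1 of the 10 had an unadjusted p under 0.05. Cntn1, a surface protein described as a Notch ligand in oligodendrocytes, lay at 19.7 to 32.2 FPKM in WT against 7.77 to 23.1 FPKM in Kdm6b-cKO (-0.91 ± 0.28, SE). In the modifiers Dtx4, a ubiquitin ligase of the Deltex family, differed by -0.81 ± 0.31 (SE), Itch by -0.76 ± 0.31 (SE) and Poglut1, which puts glucose on the receptor, by -0.69 ± 0.32 (SE). Of the nuclear cofactors, the histone deacetylase gene Hdac2 was the 1 gene of these lists with its libraries apart at P1, at 56.7 to 81.9 FPKM in WT and 83.9 to 224 FPKM in Kdm6b-cKO (0.82 ± 0.25, SE, limma adjusted p = 0.193), where 0.603% of all genes were apart in that direction. The corepressor genes Cir1 and Ctbp1 differed by 0.77 ± 0.30 (SE) and 0.62 ± 0.27 (SE).

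At P30 no gene of the lists was called either, and of 55 tested pathway genes 2 were lower and 8 were higher with an unadjusted p under 0.05, where all genes had 7.37% lower and 5.34% higher. Dtx4 had the smallest p, at 5.63 to 10.0 FPKM in WT and 9.05 to 14.1 FPKM in Kdm6b-cKO, with a log2 difference of 0.66 ± 0.17 (SE, limma adjusted p = 0.135). Its differences at P1 and P30 had opposite signs, and the change with age was 1.47 ± 0.34 (SE, limma adjusted p = 0.0846). Adam10, the protease that makes the first cut in a bound receptor, lay at 4.44 to 6.24 FPKM in WT against 5.13 to 13.8 FPKM in Kdm6b-cKO (0.70 ± 0.23, SE), and the gamma-secretase gene Aph1c differed by 0.68 ± 0.28 (SE). Numb, which encodes an inhibitor of Notch, lay at 28.8 to 33.6 FPKM in WT against 17.9 to 29.6 FPKM in Kdm6b-cKO (-0.43 ± 0.15, SE, limma adjusted p = 0.267), and Dtx3 differed by -0.64 ± 0.27 (SE). The cofactor genes Cir1, Hdac1 and Ctbp2 differed by 0.61 ± 0.22, 0.82 ± 0.30 and 0.78 ± 0.30 (SE). The proneural genes, repressed by Hes proteins, had 4 of 6 tested at P1 and 2 of 6 at P30, with 0 at an unadjusted p under 0.05 at either age.

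**Figure D5:**
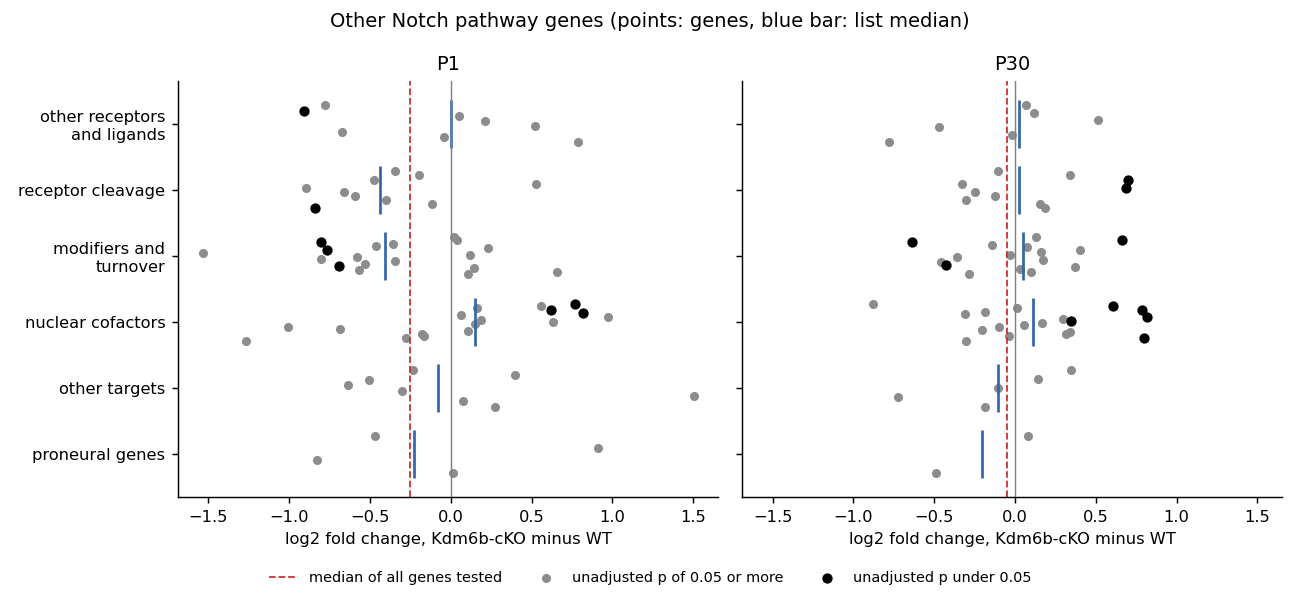
Log2 fold change, Kdm6b-cKO minus WT, of the other Notch pathway genes and the proneural genes at P1 and P30, each point a gene, with black points at an unadjusted p under 0.05, the list median in blue and the median of all genes tested as a dashed line. The median of receptor cleavage genes lies at -0.44 at P1 and at 0.03 at P30.

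With age in WT, 21 of 62 tested pathway genes fell in rank and 22 rose at an adjusted p under 0.05, a split close to that of all genes. Myc, a growth regulator and Notch target, fell by 40.0 ± 2.37 (SE) percentile points, the Notch-binding neuronal protein gene Dner fell by 31.7 ± 2.46 (SE) points and Hes6 fell by 15.1 ± 1.70 (SE) points. Sox9, a glial and progenitor transcription factor gene, fell by 16.0 ± 2.53 (SE) points. Of the cleavage genes, Adam10 fell by 17.1 ± 2.07 (SE) points and Ncstn fell by 14.7 ± 1.86 (SE) points. Cntn1 fell by 13.2 ± 1.68 (SE) points, whereas Dlk2, a ligand-like gene, rose by 13.3 ± 1.51 (SE) points. Numb rose by 25.0 ± 1.59 (SE) points, the ubiquitin ligase gene Neurl1a by 24.6 ± 2.41 (SE) points and Fbxw7, which marks the receptor's intracellular part for breakdown, by 8.94 ± 0.59 (SE) points. The gene of the coactivator Mastermind-like, Maml2, fell by 18.1 ± 2.45 (SE) points, Hdac2 fell by 8.39 ± 0.85 (SE) points and the proneural gene Neurod1 fell by 12.5 ± 1.74 (SE) points.

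Over the 45 pairs of the 10 genes at P30, with log2(FPKM + 0.1) centred on each genotype's mean over 12 libraries, no pair passed an adjusted permutation p of 0.05. The strongest was Notch3 with Hey1, with a Pearson r of -0.789 (permutation p = 0.00165, adjusted p = 0.0742) and a Spearman rho of -0.706 (permutation p = 0.0125). Its r was -0.792 without the 2 libraries farthest from the Notch3 median and -0.743 in the 8 high-Rn45s libraries. Of the genes averaging 5 FPKM or more at P30, the 1 whose pattern was most like that of Notch2 was Ifi30, and for Hes5 it was Snn. Their Pearson r was 0.896 and 0.878 over the 12 libraries, which share depth and batch. These were the highest r among 8948 and 8947 genes searched. They are given without a test, since such a search can return a high r by itself.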

How the data were processed

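RNA-seq was analysed in 24 libraries, 6 for each genotype (WT, Kdm6b-cKO) at P1 and P30. Groups follow the labels, and the tables' libraries 0 to 5 could be tied to groups but not to the numbered samples. The authors aligned reads to mm9 with HISAT2 and deposited FPKM values per gene from Cuffdiff, in a table for each age; versions, annotation and strand setting are not given in the sources used here. The paper names NovaSeq and AVITI sequencers and does not say which libraries were run on each, so the part of the sequencer was not tested. The deposited tables of the authors' own comparisons (fold changes and p-values) were not used.

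Genes averaging 1 FPKM or more were fitted as log2(FPKM + 0.1) in limma 3.58.1 (R 4.3.3; eBayes with trend, two-sided, Benjamini-Hochberg over all genes tested), so fold changes are on the log2(FPKM + 0.1) scale and understate those of low genes. A call was an adjusted p under 0.05 and over 2-fold, or the adjusted p alone for ranks and for genotype by age. Counting depends on depth: FPKM steps gave whole reads for 7 of the 10 genes (within 0.02 of a whole number), not for Notch1, Hes5 and Rbpj, and effective depth assumes fragments of 200 bases. Single genes were compared by exact two-sided permutation tests, and correlations by permutation (Python 3.11.15, numpy 2.4.6). On simulated data, 26% of 200 genes changed by 1.5 log2 units were recovered at P1, with 3 false calls among the unchanged rest of 16250 genes. At P30 57.5% were recovered, with 4 false calls among the unchanged rest of 13289. For ranks changed by 15 points, 70% of 200 were recovered, with 6 false calls among the unchanged rest of 16449. The simulation gave a gene the same spread in all libraries, so it does not carry their unequal depth. Other pseudocounts, filters, scalings, weights, batch terms and left-out libraries were tried. Named pathway genes are those past the call and, in each list and comparison, up to 3 with the smallest unadjusted p under 0.05, and some that met this rule are not reported here. The members and gene lists were chosen with earlier results of these data known.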

Additional observations from a re-analysis of the deposited data

Results flagged for a closer look

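Values far from the rest of their group were sought with Dixon's test in 40 groups of 6 libraries (10 genes, 2 genotypes, 2 ages), in which chance flags about 1 in 20. It marked 3 values, all at P1. Dll3 in Kdm6b-cKO library 5 stood highest at 18.6 FPKM, from 7 reads in the library of least depth. Hes1 in WT library 2 stood lowest at 1.39 FPKM, from 4 reads. Hey1 in WT library 4 stood lowest at 7.91 FPKM, from 13 reads in the WT library of least depth. The parts of depth and of batch in these 3 values were not tested.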

How the results depend on the processing

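With libraries left out in turn, the number of genes called was 0 to 51 at P1 (0 with all), 2 to 43 at P30 (37 with all), 0 to 92 for genotype by age (1 with all) and 9953 to 10532 for age by rank (10473 with all). At P1 it was 51 without Kdm6b-cKO library 4 and 2 without WT library 4. At P30 it was 2 without WT library 2, 3 or 5, 5 without WT library 4, 22 without WT library 1, and 8, 10 and 21 without Kdm6b-cKO library 0, 1 and 5. For genotype by age it was 92 without P1 Kdm6b-cKO library 4, 50 without P1 Kdm6b-cKO library 5, and 0 to 9 without any other library. At P1 the count was 1 with no trend in the variance, 406 with weights by depth and 96 in the libraries over 1000000 effective reads, both chosen after the depths were seen, and none of the 10 genes was among the calls. At P30 it was 530 with weights estimated by limma, 550 with Rn45s as a batch term, 864 within the high-Rn45s libraries and 62 with weights by depth. For genotype by age it was 10 with a pseudocount of 1, 2 with no filter, 3 with a minimum of 5 FPKM and 39 under quantile normalization; for age by rank it was 6242 in the Kdm6b-cKO libraries. Why these counts moved was not tested. Library numbers did not pair the samples (correlations of same-numbered deviations -0.182 to 0.233 at P1 and -0.299 to 0.328 at P30, with P30 library 3 the 1 that matched its own number best); a replicate block gave 0 calls at P30 in place of 37 and changed no call of the 10 genes.

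Of the 10 genes at P1, 2 had an exact p under 0.05 (Notch3 and Dll3), 1 did with a pseudocount of 1, with median-of-ratios scaling or with quantile normalization, and 1 to 2 did without single libraries; at P30 it was 2 (Notch2 and Hes5) with other pseudocounts or scalings and without any single library, and 1 (Notch2) within the high-Rn45s libraries. How many of all genes had an exact p under 0.05 was not computed. In limma, 14.5% of all genes at P1 and 12.7% at P30 had an unadjusted p under 0.05. Signs turned for uncalled genes. At P1 Rbpj was -0.10 with limma's weights, -0.16 with weights by depth and -0.29 in the deeper libraries, and left-out libraries gave -0.59 to 0.00 for Hes5, -0.19 to 0.23 for Jag1 and -0.54 to 0.04 for Notch1. At P30 Dll1 was -0.24 with the Rn45s term and -0.32 within the high-Rn45s libraries, and Hey1 was 0.23 with limma's weights and -0.56 to 0.02 with libraries left out. For genotype by age, left-out libraries gave -0.29 to 0.20 for Hes1, -0.06 to 0.82 for Hey1 and -0.45 to 0.12 for Notch1, and for age by rank -4.53 to 1.13 points for Hes1. P1 depth limits the low genes: Dll3, Hes1 and Notch3 had at most 24, 32 and 59 reads in any P1 library.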
